A study of Mus musculus with 31 samples.

Results

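The genes for calcium/calmodulin-dependent kinases (CaM kinases) examined here were Camk2a, Camk2b, Camk2d, Camk2g, Camk4, Camk1d, Camkk1, Camkk2 and Camkv, which are 9 of the 15648 genes counted in the left hippocampus of 31 mice. They were found by their gene symbol, and all 9 had passed the filter on low counts. The family was chosen by its CPM levels in rAAV-OVA and rAAV-control mice at 2, 5, 8 and 28 days (d), which were already known. Their levels and their differences between groups are therefore a description. No p-value is given for any of them, and counts of these genes past a limit stand beside the share over all genes only to describe them.

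All mice were adult and carried the genotype OT-I/Rag-/-. The OT-I transgene encodes a T cell receptor for a peptide of chicken ovalbumin (OVA), and the Rag deficiency, shared by treated and control groups, blocks the rearrangement of other antigen receptor genes. The rAAV-OVA group received rAAV-hSyn-OVA-mCherry and the rAAV-control group rAAV-hSyn-mCherry, injected on both sides of the brain, with expression driven by the neuronal hSyn promoter. Each mouse gave a separate bulk RNA-seq library, with 4 mice per group and day except for 3 in the rAAV-control group at 8 d. The comparison asks how the hippocampal transcriptome changes when CD8 T cells meet an antigen in neurons, as a model of limbic encephalitis.

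CaM kinases pass a rise of calcium on to other proteins. Calcium binds calmodulin, and calcium-loaded calmodulin opens the kinase domain. CaMKII is a large ring of subunits from 4 genes, of which the α and β subunits are the main forms of forebrain excitatory neurons, where the kinase sits at the postsynaptic density and is needed for long-term potentiation. CaMKI and CaMKIV form a cascade, since the CaM kinase kinases CaMKK1 and CaMKK2 phosphorylate and activate them, and CaMKIV acts in the nucleus on the transcription factor CREB. Camkv encodes a relative without kinase activity that lies at dendritic spines.

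Libraries held 19046977 to 57407902 counts, and the levels below are CPM, that is counts scaled to the library total and to TMM factors. A gene was called differentially expressed (DEG) by edgeR's quasi-likelihood test at a false discovery rate (FDR) up to 0.05, if its Log2FC was also 0.66 or more in size. The model held the 8 groups of vector and day and 2 surrogate variables, which take up variation among libraries beyond vector and day. Log2FC always means rAAV-OVA minus rAAV-control, and SE is its standard error. In bulk tissue, fewer cells of a type and less RNA per cell cannot be told apart.

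Several libraries stood apart. Mouse D844 of the rAAV-OVA group at 28 d carried the transcripts of striatal projection neurons at levels seen in no other mouse. Its level of Ppp1r1b was 627 CPM against 28.7 to 82.6 CPM in the other 30 mice, Adora2a stood at 112 CPM against 1.30 to 11.5 CPM and Drd1 at 92.5 CPM against 1.90 to 16.8 CPM. Drd2, Rgs9 and Pde10a behaved alike. Neurod6, a gene of hippocampal and cortical pyramidal neurons, was at 7.69 CPM in this mouse and at 42.8 to 258 CPM in the others. Fibcd1, a gene of CA1 pyramidal neurons, was at 26.9 CPM against 44.9 to 199.6 CPM. Wfs1, also a gene of CA1 pyramidal neurons, was at 167 CPM, within the range of the others of 78.4 to 251 CPM. The granule cell gene Prox1 was at 98.1 CPM, within their range of 43.5 to 181 CPM. These genes were chosen after their values were seen. The T cell gene Cd8a was at 6.28 CPM in D844 and at 79.1 to 171 CPM in the other rAAV-OVA mice of that day. Its library was in batch 2 and is labelled hippocampus, and each Log2FC at 28 d is given with and without it. Mouse D845, the other rAAV-OVA mouse of batch 2 at 28 d, had the lowest Prox1 level of the 31 mice, at 43.5 CPM, and the lowest Neurod6 level after D844, at 42.8 CPM. In the rAAV-control group at 8 d, mouse D720 held Cd8a at 9.73 CPM and the other control mice at 1.35 CPM or less, and mouse D696 held the highest Camk2d level of all control mice. Of 5 T cell markers only Cd8a was among the genes counted.

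Sequence upstream of the transcription start is shown for the pair of kinase kinases, which were lower in rAAV-OVA mice, and for Camk2d, which had a Log2FC in the opposite direction. A promoter entry was present for 6 of the 9 genes. The sequences are those of RefSeq for GRCm38.p6, they hold the 250 bases before the start, and they run 5′ to 3′ on the strand of the gene. Capitals mark GC boxes (GGGCGG or its complement CCGCCC) and the short form of the CREB element (TGACG or CGTCA).
Camkk1, chr11:73018738-73018987, plus strand: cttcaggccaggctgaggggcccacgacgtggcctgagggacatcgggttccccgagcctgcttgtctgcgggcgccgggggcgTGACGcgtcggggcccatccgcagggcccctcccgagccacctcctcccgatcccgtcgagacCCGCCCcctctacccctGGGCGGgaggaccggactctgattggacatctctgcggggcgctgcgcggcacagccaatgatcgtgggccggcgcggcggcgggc
Camkk2, chr5:122779411-122779660, minus strand: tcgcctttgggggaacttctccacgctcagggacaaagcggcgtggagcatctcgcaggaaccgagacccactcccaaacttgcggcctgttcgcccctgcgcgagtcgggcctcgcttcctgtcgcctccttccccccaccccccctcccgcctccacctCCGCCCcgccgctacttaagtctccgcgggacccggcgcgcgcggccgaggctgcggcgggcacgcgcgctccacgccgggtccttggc
Camk2d, chr3:126596701-126596950, plus strand: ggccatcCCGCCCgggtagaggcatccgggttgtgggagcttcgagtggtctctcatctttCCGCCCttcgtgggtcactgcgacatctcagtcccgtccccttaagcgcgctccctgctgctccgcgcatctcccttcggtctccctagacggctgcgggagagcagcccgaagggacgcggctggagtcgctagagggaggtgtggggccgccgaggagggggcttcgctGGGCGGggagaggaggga
Camkk1 held 2 GC boxes and 1 short CREB element, Camkk2 held 1 GC box and Camk2d held 3. A GC box was present on either strand in 32.7% of the 32851 promoters of the table, the short element in 17.8%, the full CREB element TGACGTCA in 1.55% and a TATA box, searched as TATAAA, in 12.4%. The full element holds the short one. Neither the full CREB element nor TATAAA was found in the entries of the 6 genes, and the short one only in that of Camkk1. A match is a description of letters, not of binding, and the counts were made on another annotation, GENCODE M29.

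In the 15 rAAV-control mice the CaM kinase genes spanned a wide range. Divided by the median length of their protein-coding transcripts in GENCODE M21, Camk2a was highest at 2834 ± 473 CPM per kb (SD, n = 15), then Camk2b at 648 ± 102 and Camkv at 178 ± 23.9. Camk1d followed at 64.1 ± 10.4, Camkk2 at 52.3 ± 5.98, Camk2g at 50.9 ± 5.66 and Camkk1 at 47.9 ± 6.03 CPM per kb. The ranges over mice of these 4 genes overlapped between neighbours, so their order among themselves is not set by these levels. Camk2d at 12.5 ± 5.09 and Camk4 at 11.3 ± 2.50 CPM per kb were lowest, and their ranges overlapped too. Camk2a and Camk2b kept the first places with the shortest or the longest transcript of each gene, while Camkv and Camk1d traded places with the shortest, and with the longest the order of all genes after Camkv changed.

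At 2 d the groups did not separate. The Log2FC of the 9 genes lay between −0.06 for Camk2d and 0.22 for Camk4, with a median of 0.09 against 0.01 over all genes, and group means ran for example from 4076 ± 137 CPM in rAAV-control to 4171 ± 698 CPM in rAAV-OVA mice for Camk2a. No gene of the table lay past the DEG limits by edgeR (0%), although 1428 of the 15648 genes had an unadjusted p under 0.05. DESeq2 and limma voom called 0 of the 9 genes as well. At 5 d, 3 of the 9 genes lay past the DEG limits as lower (Camk2a, Camkk2 and Camkv) and Camk2d as higher. Over all genes these limits were passed by 4.67% as lower and 9.56% as higher. With the FDR limit alone 6 of the 9 were lower (14% over all genes) and 1 higher (15.2%), and in 6 of the 9 every rAAV-OVA mouse lay below every rAAV-control mouse (19.6%). At 8 d none of the 9 lay past the DEG limits by edgeR, DESeq2 or limma voom, where 0.588% of all genes were called lower and 9.36% higher. At this day 1 of the 9 met the FDR limit alone as lower (4.44% lower and 13.9% higher over all genes) and 2 did without D844 (8.33%). The ranges were separate in 4 of the 9 (11.9%). At 28 d, 4 genes were past the DEG limits as lower (Camk2a, Camk2b, Camk1d and Camkk1; 4.86% over all genes) and Camk2d as higher (12.7%). The FDR limit alone was met by 6 as lower (14.3%) and 1 as higher (19.2%), and the ranges were separate downward in 6 (14%). Without D844 the counts at 28 d were 3 lower, with Camk2a lost, and 1 higher, beside 2.41% and 12.3% of all genes. By the FDR alone they were 4 lower and 1 higher, beside 5.85% and 17.2%. Without D845 they were 2 lower, Camk1d and Camkk1, and 0 higher, and the shares over all genes in that fit were not counted. The median Log2FC of the 9 genes was −0.54 at 5 d, −0.35 at 8 d and −0.55 at 28 d, or −0.52 at 28 d without D844, beside medians of −0.01, −0.03 and 0.01 over all genes. These shares describe how the genes were picked, and nothing is read from them.

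**Figure D1:**
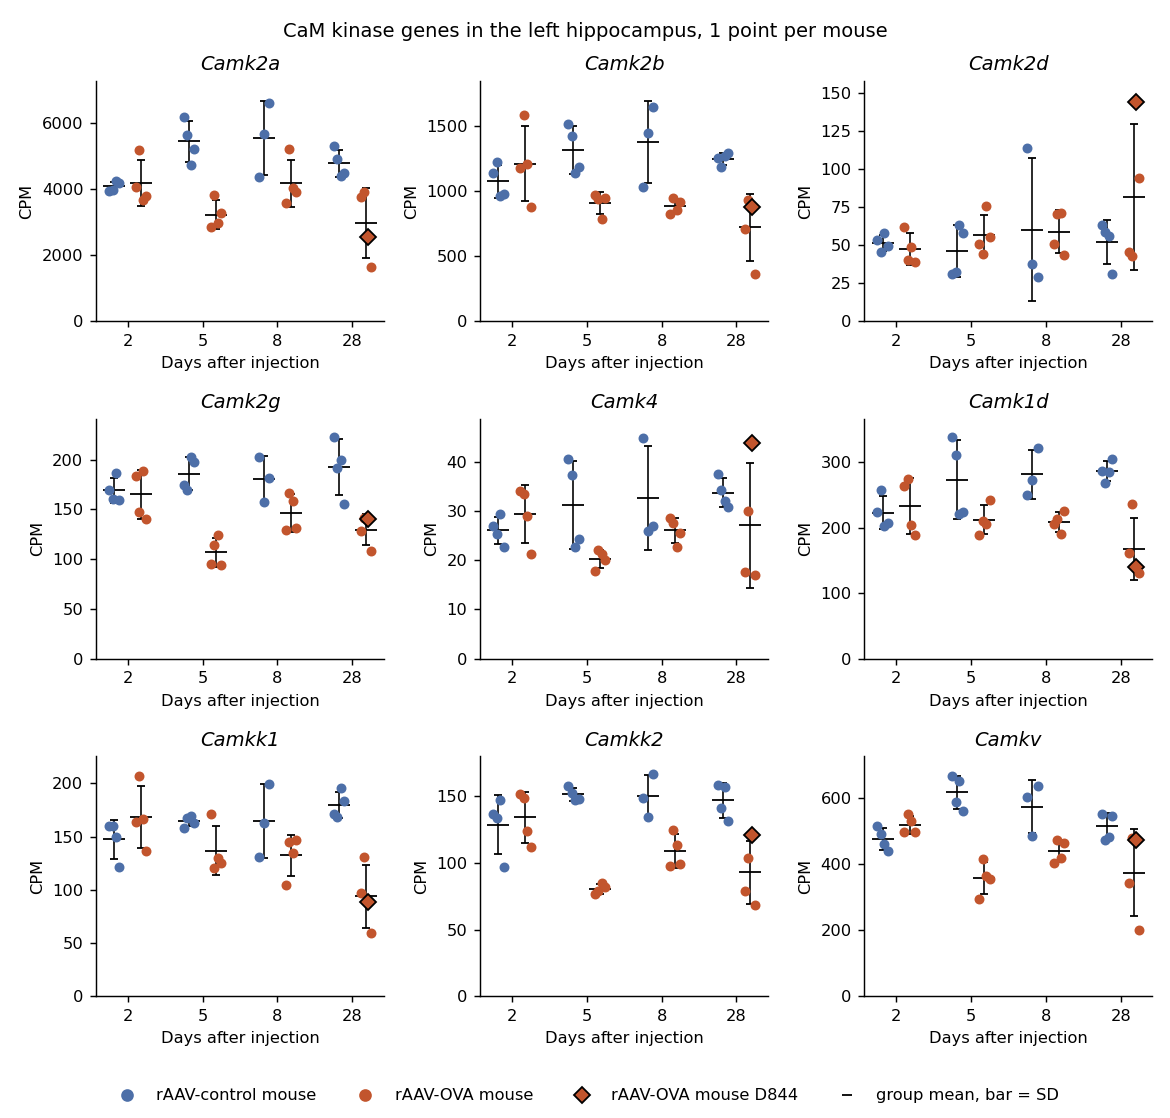
CPM (linear axis from 0) of the 9 CaM kinase genes by day after injection, 1 point per mouse, with the group mean and SD. At 5 d every rAAV-OVA mouse lay below every rAAV-control mouse for 6 of the 9 genes, and mouse D844 (diamond) was the highest of its group for Camk2d at 144 CPM and for Camk4 at 43.8 CPM.

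Camk2a encodes the α subunit, the most abundant CaMKII subunit of the forebrain. At 5 d it stood, in the order of the mouse names as for all values by mouse, at 2832, 3819, 2962 and 3276 CPM in the 4 rAAV-OVA mice and at 6184, 5621, 4726 and 5209 CPM in the 4 rAAV-control mice. The highest rAAV-OVA mouse was below the lowest rAAV-control mouse, and the Log2FC was −0.84 (SE 0.20). At 8 d the rAAV-OVA mice had 3568, 5196, 4018 and 3897 CPM and the rAAV-control mice 4354, 5662 and 6593 CPM. The groups overlapped at 8 d through D701 and D696, and the Log2FC was −0.39 (SE 0.21), or −0.55 without D696. At 28 d the values were 3766, 3888, 2553 and 1643 CPM, the third of them from D844, against 5287, 4911, 4384 and 4481 CPM. All 4 rAAV-OVA mice lay below the controls, with a Log2FC of −0.79 (SE 0.21). Without D844 it was −0.59 (SE 0.26) and no longer past the limits, and without D845 it was −0.47.

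Camk2b encodes the β subunit, which ties the kinase to filamentous actin in spines. It stood at 969, 942, 786.5 and 948 CPM in rAAV-OVA mice at 5 d and at 1515, 1427, 1142 and 1182 CPM in rAAV-control mice. The ranges were separate, and the Log2FC of −0.54 (SE 0.20) was under the limit on size. At 8 d the values were 821, 948, 857 and 915 CPM against 1033, 1449.8 and 1651 CPM, again with every rAAV-OVA mouse lower, and the Log2FC was −0.53 (SE 0.21). Without D696 it was −0.69 and past the DEG limits. At 28 d the rAAV-OVA mice had 712, 935, 877 and 363 CPM and the rAAV-control mice 1253, 1185, 1270.2 and 1292 CPM. The controls lay close together, and the lowest value belonged to D845. The Log2FC was −0.83 (SE 0.20), −0.85 (SE 0.24) without D844 and −0.59 without D845, the last under the limit on size.

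Camk2g encodes the γ subunit, one splice form of which carries calcium-loaded calmodulin to the nucleus. At 5 d it was at 94.8, 114, 124 and 94.7 CPM in rAAV-OVA mice and at 174, 170, 203 and 197 CPM in rAAV-control mice. The ranges did not overlap, and the SE of 0.10 was the smallest of the 9 genes at this day. The Log2FC of −0.64 fell just short of the limit of 0.66, while Camkv at −0.70 lay just past it. The values at 8 d were 129, 167, 158 and 132 CPM against 203, 158 and 182 CPM and the groups overlapped, with a Log2FC of −0.30 (SE 0.11). At 28 d they were 129, 141, 140.3 and 109 CPM against 223, 192, 199 and 156 CPM and did not overlap. The Log2FC of −0.40 (SE 0.10) moved to −0.20 (SE 0.13) without D844.

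Camk2d encodes the δ subunit, the main CaMKII form of the heart and a minor one in neurons. It was the only one of the 9 genes with a positive Log2FC at 5, 8 and 28 d. At 5 d the rAAV-OVA mice had 50.9, 44.3, 75.6 and 55.7 CPM and the rAAV-control mice 30.9, 32.01, 63.3 and 57.8 CPM. The groups overlapped, with means of 56.6 ± 13.5 and 45.99 ± 16.96 CPM, and the fitted Log2FC of 0.90 (SE 0.26) became 0.30 in a model without the surrogate variables. At 8 d the values were 50.9, 70.2, 71.2 and 43.5 CPM against 114, 37.7 and 28.96 CPM. The highest value here was in a control mouse, D696, and the Log2FC of 0.20 (SE 0.27) was 0.85 without it and −0.03 without the surrogate variables. At 28 d the rAAV-OVA mice had 45.4, 42.7, 144 and 94.5 CPM, the 2 high ones being D844 and D845, against 63.4, 58.4, 55.96 and 31.2 CPM in the controls. The difference of mean log2 CPM was −0.47 within batch 1 and 1.48 within batch 2 (2 against 2 mice each), so its sign turned between batches. The fitted Log2FC of 1.09 (SE 0.26) was 1.13 (SE 0.37) without D844, 0.37 without D845 and 0.64 without the surrogate variables. The means at 28 d were 81.7 ± 47.9 CPM and 52.3 ± 14.4 CPM, and 60.9 ± 29.2 CPM in the 3 rAAV-OVA mice other than D844. The call at 5 d was lost without the surrogate variables or without D786, and that at 28 d without the surrogate variables or without D845.

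**Figure D2:**
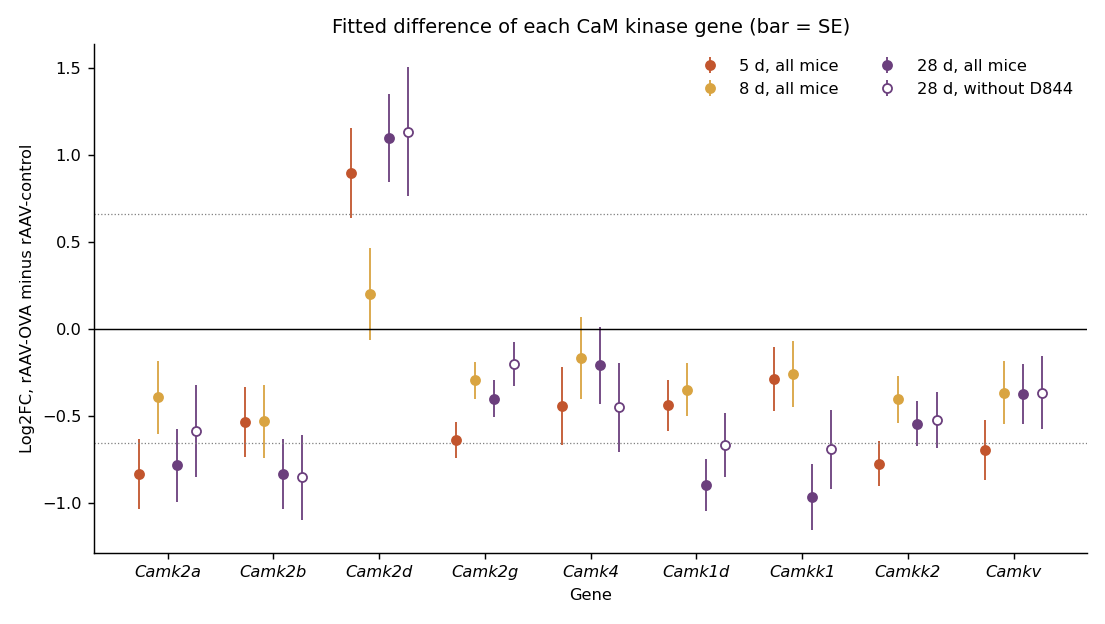
Log2FC (vertical axis, log2 scale) of each CaM kinase gene at 5, 8 and 28 d from the model of all mice, with open circles for 28 d without mouse D844. Bars are the SE and dotted lines the limit of 0.66, and Camk2d is the only gene above 0, at 0.90 at 5 d and 1.09 at 28 d.

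Because the 4 CaMKII genes supply subunits of the same ring, their share in the summed per-length level of all 4 was computed in each mouse. In the 15 rAAV-control mice Camk2a held 79.8 ± 1.49%, Camk2b 18.3 ± 1.50%, Camk2g 1.46 ± 0.253% and Camk2d 0.369 ± 0.178%. With the shortest or the longest transcript of each gene in place of the median, the Camk2a share was 91.5% or 72.7%. At 5 d the sum was 3881 ± 440.5 CPM per kb in rAAV-control and 2375 ± 267 CPM per kb in rAAV-OVA mice (mean ± SD). At 28 d it was 3464 ± 237 and 2139 ± 715 CPM per kb, the latter 2185 ± 868 CPM per kb without D844. The shares of Camk2a and Camk2b differed by −2.66 to 2.46 percentage points, rAAV-OVA minus rAAV-control, over the 4 days. The difference at 28 d was 0.20 points for Camk2a and −1.22 for Camk2b, and without D844 2.16 and −2.94 points, the last outside that range. The Camk2a share at 5 d was 80.7 ± 0.548% in rAAV-control and 78.1 ± 2.27% in rAAV-OVA mice, and that of Camk2b 17.6 ± 0.717% and 20.1 ± 2.29%, with overlapping ranges. At 8 d the Camk2a share was 80.3 ± 0.235% and 82.2 ± 1.49%, the only share and day at which the ranges were separate. The Camk2d share at 28 d was 0.360 ± 0.0892% in rAAV-control and 1.11 ± 0.824% in rAAV-OVA mice, or 0.899 ± 0.873% without D844. D844 and D845 held the highest Camk2d shares of the day.

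**Figure D3:**
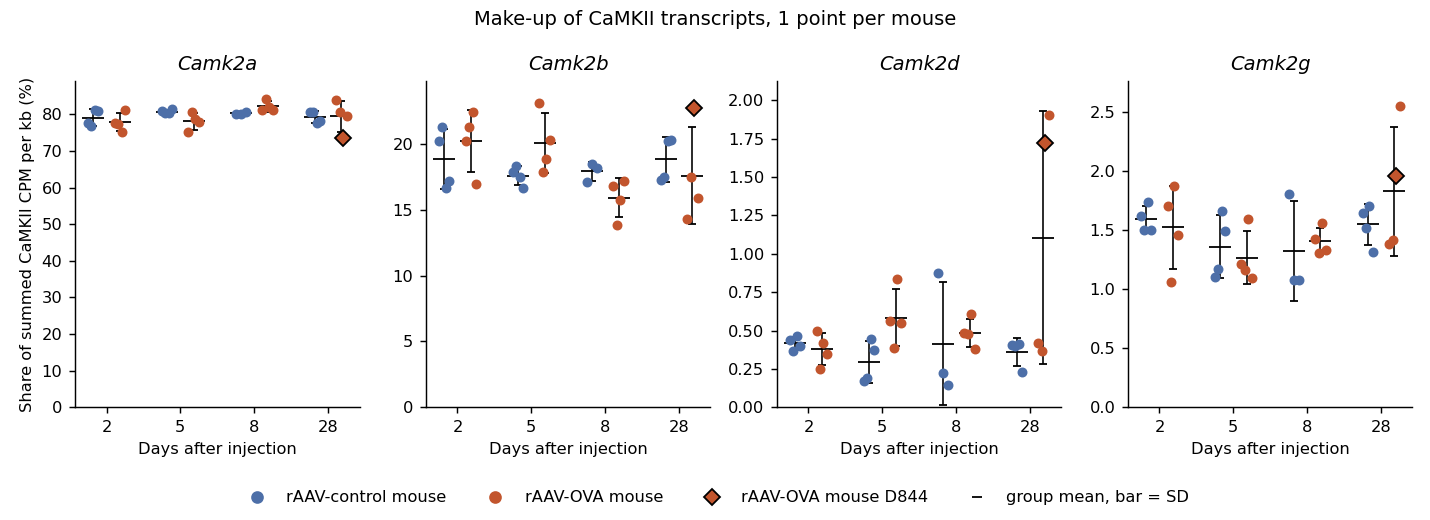
Share (percent, linear axis from 0) of each CaMKII gene in the summed CPM per kb of Camk2a, Camk2b, Camk2d and Camk2g by day after injection, 1 point per mouse with group mean and SD. The Camk2a share of the group means stayed between 77.9% and 82.2%, and mouse D844 (diamond) had the lowest Camk2a share, at 73.6%.

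Camk4 encodes CaMKIV, the nuclear kinase of the cascade. At 5 d it was at 17.9, 22.03, 21.3 and 20.02 CPM in rAAV-OVA mice and at 40.5, 37.2, 22.7 and 24.2 CPM in rAAV-control mice. The ranges were separate by less than 1 CPM, with a high and a low pair among the controls, and the Log2FC was −0.44 (SE 0.22). The values at 8 d were 28.5, 27.5, 22.7 and 25.5 CPM against 44.9, 25.995 and 27.02 CPM, with D696 the highest, and at 28 d 17.7, 29.98, 43.8 and 16.9 CPM against 37.5, 34.2, 31.98 and 30.9 CPM. The highest value at 28 d was that of D844, a mouse with high striatal genes, and without it the other 3 rAAV-OVA mice all lay below the controls. The Log2FC was −0.17 (SE 0.23) at 8 d and 0.13 without D696. At 28 d it was −0.21 (SE 0.22), and −0.45 (SE 0.26) without D844.

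Camk1d encodes CaMKIδ, a cytoplasmic kinase of the same cascade. At 5 d the rAAV-OVA mice had 189, 210.3, 205 and 242 CPM and the rAAV-control mice 338, 310.1, 221 and 224 CPM, which overlapped. The Log2FC was −0.44 (SE 0.15). At 8 d the values were 205, 213, 191 and 226 CPM against 249, 272 and 322 CPM, with separate ranges and a Log2FC of −0.35 (SE 0.15). The values at 28 d were 161, 236, 139 and 131 CPM against 286, 268, 284 and 305 CPM. Every rAAV-OVA mouse was lower, and the Log2FC of −0.90 (SE 0.15) stayed past the limits without D844, at −0.67 (SE 0.18), and without D845, at −0.71. The Log2FC at 28 d minus that at 5 d was −0.46 (SE 0.195), and −0.26 (SE 0.213) without D844.

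Camkk1 encodes CaMKKα, an activator of CaMKI and CaMKIV. At 5 d the values of 171, 121, 130.2 and 126 CPM in rAAV-OVA and 158, 168, 169 and 163 CPM in rAAV-control mice overlapped through D725 alone, and the Log2FC was −0.29 (SE 0.19). At 8 d they were 105, 145, 134 and 146 CPM against 131, 163 and 199.6 CPM, with a Log2FC of −0.26 (SE 0.19). At 28 d the rAAV-OVA mice had 97.1, 131, 88.7 and 59.4 CPM and the rAAV-control mice 171, 168, 196 and 183 CPM. The group means were 179.6 ± 12.6 and 93.96 ± 29.3 CPM in rAAV-control and rAAV-OVA mice, and the Log2FC of −0.97 (SE 0.19) was the lowest of the 9 genes with all mice. It was −0.69 (SE 0.23) without D844 and −0.76 without D845, past the limits in both cases. Without D844 the lowest was that of Camk2b, at −0.85. The Log2FC of Camkk1 at 28 d minus that at 5 d was −0.68 (SE 0.243), or −0.47 (SE 0.264) without D844. The difference was −0.59 on the log2 CPM scale within batch 1 and −1.38 within batch 2, where D844 and D845 lie.

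Camkk2 encodes CaMKKβ, which also phosphorylates the energy sensor AMPK. At 5 d it was at 76.9, 78.9, 85.1 and 81.9 CPM in rAAV-OVA and at 158, 153, 147 and 148 CPM in rAAV-control mice. Both groups were tight, with means of 80.7 ± 3.59 and 151 ± 4.67 CPM, and the Log2FC was −0.78 (SE 0.13). The values at 8 d were 97.7, 124, 114 and 99.3 CPM against 149, 135 and 166 CPM, and at 28 d 78.7, 104, 121 and 68.6 CPM against 159, 141, 157 and 131 CPM. The ranges were separate at both days. The Log2FC was −0.41 (SE 0.13) at 8 d and −0.55 (SE 0.13) at 28 d, or −0.52 (SE 0.16) without D844.

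Camkv encodes the pseudokinase of the family. At 5 d it stood at 295, 415, 364 and 356 CPM in rAAV-OVA and at 667.05, 588, 649 and 560.3 CPM in rAAV-control mice, with a Log2FC of −0.70 (SE 0.17). At 8 d the values were 402, 471, 418 and 463 CPM against 602, 484 and 636 CPM and were separate. At 28 d they were 342, 478, 474 and 199.7 CPM against 551, 473, 483 and 546 CPM and overlapped. The Log2FC was −0.37 (SE 0.18) at 8 d and −0.38 (SE 0.17) at 28 d, or −0.37 (SE 0.21) without D844.

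At 2 and 28 d each group held 2 mice of each batch, and the batches could be set side by side. At 2 d 5 of the 9 genes turned sign between them (Camk2a, Camk2d, Camk4, Camk1d and Camkk2). Camk2a had a difference of log2 CPM of −0.17 in batch 1 and 0.21 in batch 2, and the 2 mice of each group did not overlap in either batch. Only Camk2d turned sign at 28 d. The other 8 genes had a lower mean in rAAV-OVA mice within both batches. How many of all genes kept their sign between batches was not counted, so nothing is read from these counts. The difference at 28 d was −0.41 in batch 1 and −1.11 in batch 2 for Camk2a, −0.58 and −1.18 for Camk2b, and −0.51 and −1.12 for Camk1d. For Camk2g it was −0.62 and −0.51, and for Camkk2 −0.72 and −0.65. All mice at 5 and 8 d were of batch 1.

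Neuron markers were measured beside the CaM kinase genes. The summed level of 5 neuron markers (Rbfox3, Snap25, Syt1, Map2 and Nefl, all measured, none at 0) ran from 4959 to 5974 CPM in rAAV-control and from 3886 to 4324 CPM in rAAV-OVA mice at 5 d. It was 4078 to 5880 and 3282 to 4799 CPM at 8 d, and 5085 to 5782 and 2191 to 4376 CPM at 28 d. The 5 markers did not move alike. By edgeR's quasi-likelihood test at 5 d, Syt1 alone met the FDR limit, at −0.46 (FDR 0.038), while Map2, a dendritic protein gene, had 0.12 (FDR 0.654). At 8 d their Log2FC ran from −0.43 to −0.11, with FDR from 0.0669 to 0.696. With D844 left out of the model of all days, 2 of the 5 met the FDR limit as lower at 8 d. These were Rbfox3, at −0.39 (FDR 0.023), and Snap25, at −0.45 (FDR 0.0464). At 28 d 4 of the 5 met the FDR limit as lower, all but Map2 at −0.26 (FDR 0.262), or −0.22 (FDR 0.505) without D844, and 3 of the 5 did without that mouse. The sum of 4 markers of CA1 pyramidal neurons (Wfs1, Fibcd1, Mpped1 and Pou3f1) was 643 to 701.8 CPM in rAAV-control and 378 to 450.3 CPM in rAAV-OVA mice at 5 d. It was 537 to 679.9 and 267 to 455 CPM at 28 d, with D844 the lowest and the other 3 at 306 to 455 CPM. At 5 d Fibcd1 had −1.31 (FDR 0.00284) and Pou3f1 −0.54 (FDR 0.0123). At 28 d 3 of the 4 met the FDR limit as lower, and 1 without D844.

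The part of these markers in the values of the kinase genes was not tested, and each kinase gene was set against the mean log2 CPM of the markers in the same mouse, as a description. Against the 5 neuron markers at 5 d, Camk2a differed by −0.40 between the groups, Camkk2 by −0.55 and Camkv by −0.44, and in these 3 genes every rAAV-OVA mouse was below every rAAV-control mouse. Camk2g differed by −0.45 with overlapping ranges, Camk2b by −0.17, Camk1d by 0.01 and Camkk1 by 0.08. Against the 4 CA1 markers, a scale chosen after the values were seen, the difference at 5 d was −0.08 for Camk2a and −0.11 for Camkv, both with overlapping ranges. Camkk2 differed by −0.23 with separate ranges on this scale, and Camk1d and Camkk1 stood higher in every rAAV-OVA mouse, by 0.33 and 0.40. Camk2d stood higher by 1.03 with separate ranges, and by 0.70 with overlapping ranges against the 5 neuron markers. The values at 5 d thus depended on which neuron markers served as the base. At 28 d the measure against the 5 neuron markers was 0.03 for Camk2a, 0.11 for Camkk2, 0.26 for Camkv and −0.19 for Camkk1. Without D844 these were 0.16, 0.05, 0.20 and −0.10. The ranges overlapped in all 9 genes at 28 d on both scales, also without D844.

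**Figure D4:**
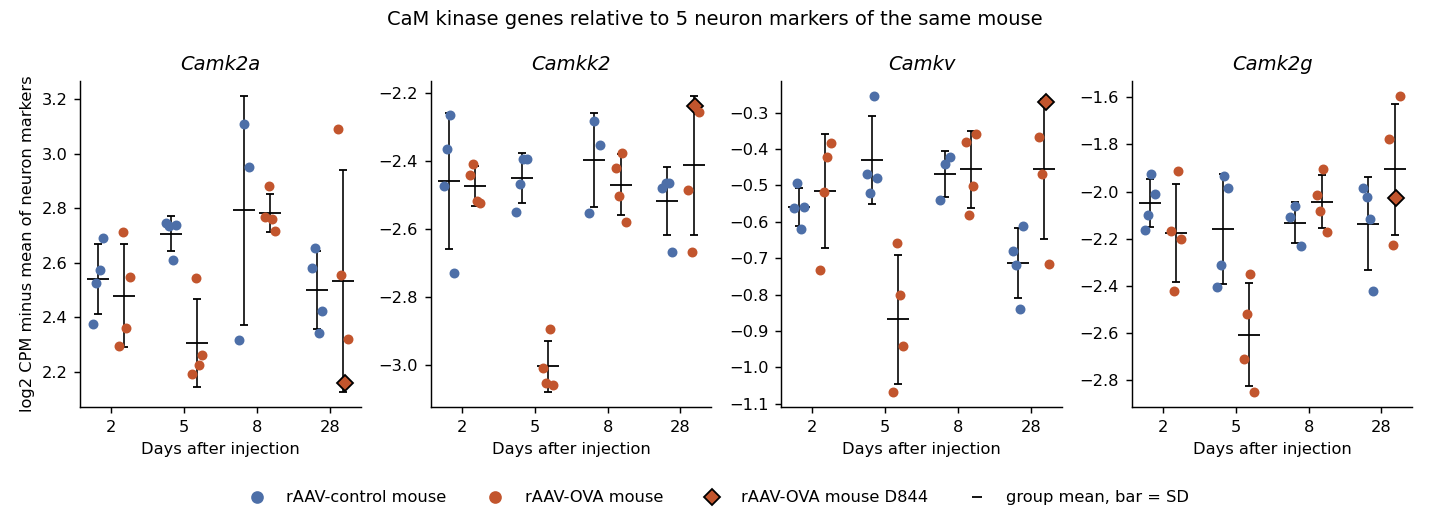
log2 CPM of Camk2a, Camkk2, Camkv and Camk2g minus the mean log2 CPM of 5 neuron markers in the same mouse (vertical axis, log2 scale) by day after injection, with group mean and SD. At 5 d the difference between groups was −0.40 for Camk2a, −0.55 for Camkk2 and −0.44 for Camkv, and at 28 d the groups overlapped.

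Markers of other cell types differed too. The sum of 5 markers of microglia and macrophages was 287 to 483 CPM in rAAV-control and 605 to 694 CPM in rAAV-OVA mice at 5 d, and 214 to 254 and 293 to 922 CPM at 28 d, with D844 the lowest of the latter. The sum hides a split at 5 d, where Aif1, Csf1r and Cd68 were past the DEG limits as higher, P2ry12, a gene of resting microglia, was lower at −0.65 (FDR 0.0131) and Cx3cr1 had 0.14 (FDR 0.706). Cd8a was at 0.108 to 1.35 and 32.02 to 46.2 CPM at 5 d. The sum of 4 astrocyte markers was 1795 to 2932 CPM in rAAV-control and 3342 to 4548 CPM in rAAV-OVA mice at 5 d, where the lowest FDR of the 4 was 0.0976, and 1346 to 1698 and 1881 to 4469.7 CPM at 28 d. The sum of 3 oligodendrocyte markers was 3736 to 6502 and 2296 to 3468 CPM at 5 d, with all 3 past the DEG limits as lower, and overlapped at 28 d with 4561 to 6184 and 4216 to 6985 CPM. That of 3 endothelial markers did not overlap between the groups at 28 d, at 97.4 to 127 and 141 to 223 CPM, and Cldn5 and Pecam1 were past the DEG limits as higher, with 1.15 (FDR 0.00372) and 1.09 (FDR 0.000994), and with 1.45 (FDR 0.00446) and 1.34 (FDR 0.000777) without D844. The sum of 3 interneuron markers at 28 d was 549 to 589 CPM in rAAV-control mice and 1578 CPM in D844. The other 3 rAAV-OVA mice had 273 to 429 CPM, all below the controls, so the side on which the rAAV-OVA mice lay turned on D844. The sum of 4 markers of dentate granule cells at 28 d was 351 to 417 and 116 to 367 CPM. None of these markers was at 0 apart from Cd8a in a single rAAV-OVA library at 2 d, and their part in the kinase values was not tested.

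The list of 46 other genes of the CaM kinase pathway was drawn up by the roles of the genes, with earlier results of these data known. It was tested with edgeR's quasi-likelihood test, with the FDR taken over all 15648 genes. Past the DEG limits, 2 genes were lower and 1 higher at 5 d, 1 lower and 0 higher at 8 d, and 14 lower and 0 higher at 28 d. By the FDR limit alone 13 were lower and 1 higher at 5 d, 7 and 0 at 8 d, and 22 and 3 at 28 d. Over all genes the FDR limit was met by 14% and 15.2% at 5 d, 4.44% and 13.9% at 8 d, and 14.3% and 19.2% at 28 d, as lower and higher. With D844 left out of the model the FDR limit alone was met by 11 as lower at 8 d, beside 8.33% of all genes, and by 14 as lower and 1 as higher at 28 d, beside 5.85% and 17.2%. Of the genes not called higher, 1 at 8 d and 4 at 28 d had a positive Log2FC with an unadjusted p under 0.05, beside 20.4% and 24.4% of all genes. DESeq2 called 0 higher at 8 d and 1 at 28 d, limma voom 0 at both days. The share called lower at 28 d, 14 of 46, stands beside 4.86% of all genes, that at 5 d, 2 of 46, beside 4.67%, and that at 8 d, 1 of 46, beside 0.588%. The 1 gene called higher at 5 d stands beside 9.56% of all genes. The median Log2FC was −0.23, −0.29 and −0.40 at 5, 8 and 28 d. Without D844 the counts at 28 d were 10 lower and 0 higher, 9 of the 10 shared with the call on all mice, beside 2.41% of all genes, and the median was −0.41. At 5 d, with D844 left out of the model of all days, 3 were lower (Nrgn, Pnck and Ppp3ca) and 2 higher (Fos and Bdnf), beside 4.74% and 11.7% of all genes. Pnck, which encodes CaMKIβ, was named after its values were seen. Without D845 the count lower at 28 d was 6, namely Ppm1e, Grin2a, Grin2b, Bdnf, Ryr2 and Ryr3. The share over all genes in that fit was not counted.

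Calmodulin, the calcium sensor itself, is encoded by several genes for the same protein. Calm3 fell from 1957 ± 100.4 to 1235 ± 129 CPM at 5 d, with a Log2FC of −0.68 (SE 0.14, FDR 0.000901). It was under the size limit when D844 was left out of the model of all days, at −0.61 (FDR 0.00206). Calm2 was under the size limit at 28 d, with −0.52 (SE 0.14, FDR 0.00638) and −0.65 (FDR 0.00931) without D844. The calmodulin buffer neurogranin, Nrgn, which holds calmodulin at low calcium in dendrites, fell at 5 d with −0.90 (SE 0.19, FDR 0.000935) and at 28 d with −0.89 (SE 0.19, FDR 0.00148), the latter −0.61 (FDR 0.0689) without D844. Of the other buffers, Gap43 stood at 0.65 (SE 0.19, FDR 0.0102) at 28 d but at 0.31 (FDR 0.25) without D844, and Pcp4 at 0.54 (SE 0.32, FDR 0.208). Pcp4 fell past the limits without D844, at −0.81 (FDR 0.00223), so its sign turned with that mouse.

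Among inhibitors and phosphatases of the kinases, Ppp1r1a, inhibitor 1 of protein phosphatase 1, fell at 8 d from 90.8 ± 24.8 to 58.04 ± 4.81 CPM (−0.73, SE 0.16, FDR 0.0035) and at 28 d (−0.69, SE 0.16, FDR 0.00234), the latter −0.92 (FDR 0.00127) without D844. The call of Ppp1r1a at 8 d was lost without the control mouse D720. Ppm1e, a phosphatase that removes the activating phosphate of CaM kinases, fell at 28 d from 409 ± 28.8 to 221 ± 73.9 CPM, with −0.94 (SE 0.17, FDR 0.000402) and −0.84 (FDR 0.00385) without D844. The CaMKII inhibitor genes did not pass the limits. Camk2n1 had −0.49 (SE 0.17, FDR 0.0309) at 5 d and −0.43 (SE 0.17, FDR 0.0546) at 28 d, and Camk2n2 0.16 (SE 0.15, FDR 0.431) at 28 d. Without D844 these values at 28 d were −0.44 (FDR 0.15) and 0.32 (FDR 0.21). Calcineurin is the calmodulin-dependent phosphatase that opposes these kinases. Its catalytic gene Ppp3ca fell at 28 d, with −0.78 (SE 0.18, FDR 0.00194), as did its regulatory gene Ppp3r1, with −0.76 (SE 0.17, FDR 0.00181). Both calls held without D844, at −0.84 (FDR 0.00573) and −0.73 (FDR 0.017), and both fell under the size limit without D845. Ppp3cb had −0.59 (SE 0.15, FDR 0.00591) and Rcan1 −0.01 (SE 0.12, FDR 0.97) at 28 d, or −0.49 (FDR 0.0688) and −0.16 (FDR 0.421) without D844.

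At the synapse, 5 of 9 listed targets and partners of CaMKII fell past the DEG limits at 28 d, beside 4.86% of all genes. By the FDR limit alone 4 of the 9 were lower at 5 d, 1 at 8 d and 7 at 28 d, beside 14%, 4.44% and 14.3% of all genes. Gria1 had −0.52 (SE 0.18, FDR 0.0352) and Grin1 −0.43 (SE 0.14, FDR 0.0239) at 5 d, and Grin1 −0.44 (SE 0.15, FDR 0.0394) at 8 d. The NMDA receptor subunit genes, whose product GluN2B binds CaMKII, were among those past the limits at 28 d. Grin2a fell from 416 ± 19.7 to 176 ± 107 CPM (−1.40, SE 0.26, FDR 0.000562), Grin2b had −0.9963 (SE 0.25, FDR 0.00401) and Grin1 −0.66 (SE 0.14, FDR 0.00146). The AMPA receptor gene Gria1, whose product CaMKII phosphorylates, had −0.78 (SE 0.18, FDR 0.00285), and Lrrc7, which encodes the scaffold densin, −0.73 (SE 0.23, FDR 0.0169). Without D844 Grin2a, Grin2b and Gria1 stayed past the limits, at −0.96 (FDR 0.0178), −0.82 (FDR 0.0417) and −0.71 (FDR 0.0249). Grin1 was then under the size limit at −0.63 (FDR 0.0109), and Lrrc7 had −0.69 (FDR 0.069). Without D845 Grin2a and Grin2b stayed past the limits, and Gria1, Grin1 and Lrrc7 were under the size limit. Dlg4, which encodes PSD-95, had −0.44 (SE 0.17, FDR 0.0486) at 5 d and −0.34 (SE 0.17, FDR 0.109) at 28 d, the latter −0.39 (FDR 0.161) without D844.

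Among the nuclear targets, the immediate early gene Fos rose at 5 d from 20.2 ± 4.38 to 59.4 ± 25.7 CPM, with 1.76 (SE 0.35, FDR 0.00076). Bdnf, a neurotrophin gene with CREB elements, stood at 69.2 ± 20.7 CPM in rAAV-OVA and 40.7 ± 9.06 CPM in rAAV-control mice at 5 d (0.57, SE 0.25, FDR 0.0871) and fell at 28 d from 35.9 ± 7.16 to 15.1 ± 7.80 CPM (−1.52, SE 0.26, FDR 0.000322). Without D844 the value at 28 d was −0.94 (FDR 0.0145), and that at 5 d was past the DEG limits as higher, at 0.66 (FDR 0.0182). Creb1 and its coactivator gene Crtc1 did not pass at any day, with 0.07 (SE 0.10, FDR 0.591) and −0.42 (SE 0.17, FDR 0.0575) at 28 d, or 0.26 (FDR 0.108) and −0.35 (FDR 0.236) without D844. Among the genes of calcium entry and stores, the ryanodine receptor genes Ryr2 and Ryr3 and the L-type channel gene Cacna1c fell at 28 d, with −1.144 (SE 0.23, FDR 0.000861), −1.01 (SE 0.29, FDR 0.0109) and −0.67 (SE 0.25, FDR 0.0388). Only Ryr2 stayed past the limits without D844, at −0.71 (FDR 0.032), while Ryr3 had −0.84 (FDR 0.0568) and Cacna1c −0.42 (FDR 0.295). Cacna1d had −0.47 (SE 0.14, FDR 0.0116) and Itpr1 −0.39 (SE 0.15, FDR 0.0452), and neither met the FDR limit without D844, at −0.21 (FDR 0.295) and −0.41 (FDR 0.109). Of the other CaM-regulated kinases Pnck came nearest the limits at 5 d, at −0.62 (SE 0.23, FDR 0.0411), and passed them as lower with D844 left out of the model, at −0.71 (FDR 0.00166). Camk1 was at 0.51 (SE 0.17, FDR 0.0213) and Camk1g at −0.30 (SE 0.15, FDR 0.115) at 28 d, or 0.62 (FDR 0.0195) and −0.41 (FDR 0.0859) without D844.

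**Figure D5:**
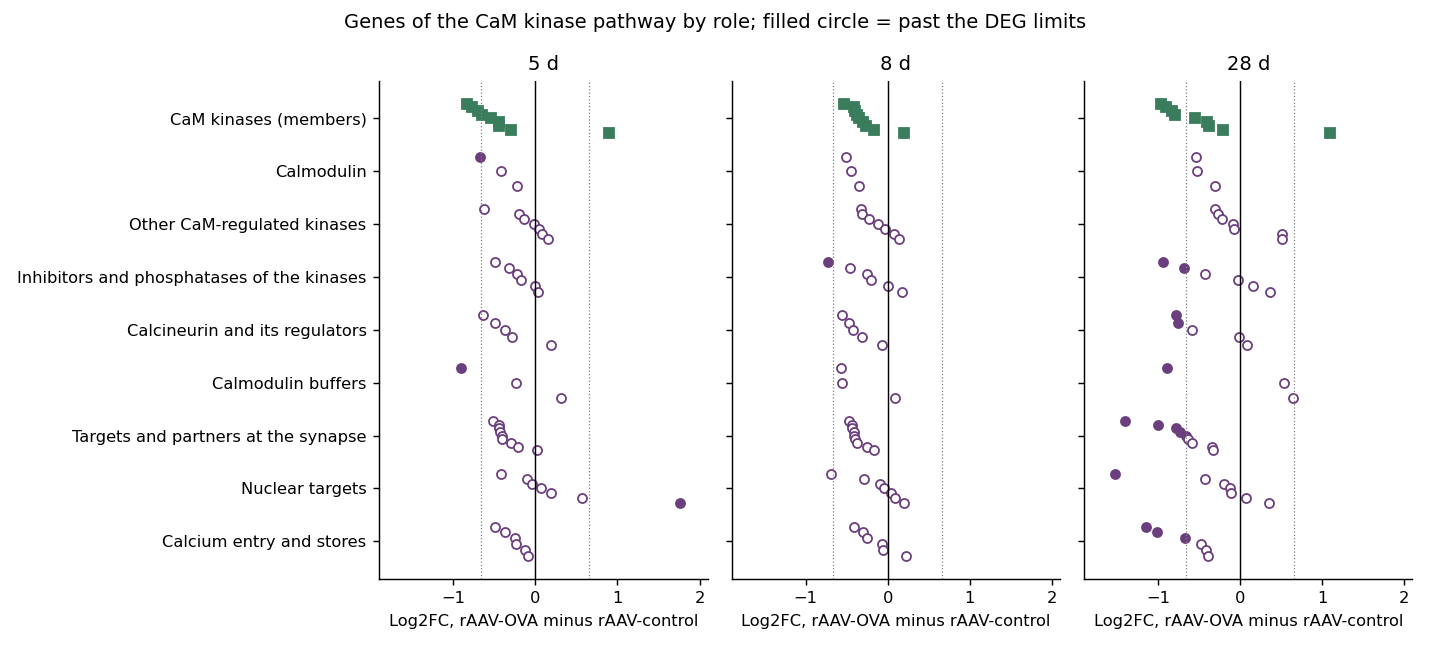
Log2FC (horizontal axis, log2 scale) of the 46 other genes of the CaM kinase pathway by role (circles, filled past the DEG limits) and of the 9 CaM kinase genes (squares) at 5, 8 and 28 d, with dotted lines at the limit of 0.66. At 28 d 14 of the 46 genes were filled and lower, against 2 at 5 d.

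Whether the response of a gene differed between days was tested as an interaction in the same model. All mice at 5 d were of batch 1, so 28 d cannot be told apart from batch for its mice of batch 2. The same holds for the values of Camk1d and Camkk1 at 28 d minus 5 d. Between 5 and 28 d, 6.18% of all genes differed past the DEG limits, and 3 of the 46 did. The Log2FC at 28 d minus that at 5 d was −2.09 (SE 0.33, FDR 0.000587) for Bdnf, −0.77 (SE 0.22, FDR 0.0308) for Ppm1e and 1.135 (SE 0.31, FDR 0.0231) for Pnck. Without D844, where 2.88% of all genes differed, only Bdnf passed, at −1.60 (SE 0.31, FDR 0.00611), while Ppm1e had −0.64 (SE 0.23, FDR 0.118) and Pnck 0.64 (SE 0.24, FDR 0.135). Between 5 and 8 d, 0.179% of all genes differed and none of the 46 by this test. None of the listed synaptic genes was among the 3 that differed between 5 and 28 d.

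The genes whose levels ran most like each CaM kinase gene were taken by Pearson's r of log2 CPM over the 31 mice, which share the split between groups, so r is a description across the same libraries. For Camk2a they were Iqsec2 (r = 0.97), Ddn (r = 0.97) and Septin3 (r = 0.96), for Camk2b Slc8a2 (r = 0.98), Ptk2b (r = 0.96) and Gria1 (r = 0.96), and for Camkv Icam5 (r = 0.97), Rab3a (r = 0.96) and Rtn1 (r = 0.95). Camk2g ran with Sncb (r = 0.94), Kcnj11 (r = 0.93) and Cacng7 (r = 0.92), and Camk1d with Prkca and Gnaq (r = 0.95 each). Camkk1 ran with Pgbd5 (r = 0.93), Plekhg5 (r = 0.92) and Inka2 (r = 0.91), Camkk2 with Zfp239, Dmtn and Ccdc149 (r = 0.93 each) and Camk4 with Zkscan16 (r = 0.90), Nalcn and Negr1 (r = 0.89 each). Camk2d had the weakest partners, Atp2b4 (r = 0.86), A930011G23Rik (r = 0.85) and Elmo1 (r = 0.85). Over the 30 mice without D844 the first partner stayed first for Camk2b, Camk2g, Camkk2 and Camkv and changed for the other 5 genes. Among the CaM kinase genes themselves, r was highest between Camkk1 and Camk2b (0.892), between Camkk2 and Camk2g (0.885) and between Camkv and Camkk2 (0.863), and lowest between Camk2d and Camk1d (−0.601). Camk2d also had a negative r with Camk2a (−0.557) and Camk2b (−0.536).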

How the data were processed

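Left hippocampi of 31 mice were measured by bulk RNA-seq, 1 library per mouse. The deposited expected counts were made by the authors with fastp, Salmon 1.8.0 on GENCODE M29 and tximeta, rounded to whole numbers, and limited to genes that reached 15 counts in 15 or more mice. The authors used DESeq2 1.36.0. Groups, days and batches are those of the labels, and none of the columns was left unused. Because Salmon assigns shared reads by probability, levels of near-identical genes, such as the calmodulin genes, are less certain.

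From these counts edgeR 4.0.16 (R 4.3.3) computed TMM-scaled CPM and quasi-likelihood tests over 15648 genes in 8 groups of vector and day with 2 surrogate variables (sva 3.50.0), followed by Benjamini-Hochberg adjustment. The SE is the Log2FC divided by the root of its F statistic. DESeq2 1.42.0, limma 3.58.1 (voom), other covariates, filters and transcript lengths, single batches and left-out mice were alternatives. The fit was tested on simulated data. Replicates are separate mice. Libraries held 19046977 to 57407902 counts (median 27024978).

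The 9 genes and all lists were chosen with earlier results of these data known. The text names all 9, every pathway gene past the limits at 5, 8 or 28 d and up to 2 others per role in the order listed, and the 3 genes with the highest Pearson r for each of the 9. Some genes that this rule names are not reported here. Genes of brain regions, and the model of all days without D844, were added after seeing the data.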

Additional observations from a re-analysis of the deposited data

Results flagged for a closer look

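Single mice stood apart from the other mice of their group by Dixon's criterion, which chance meets in about 1 of 20 groups. Groups of 4 mice were examined, 63 for CPM of the 9 genes and 28 for CaMKII shares. Camk2b in the rAAV-OVA group at 5 d was at 786.5 CPM in mouse D786 and at 942 to 969 CPM in the others. The Camk2d share in the rAAV-control group at 28 d was 0.227% in D851 and 0.399 to 0.412% in the others.

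In the rAAV-OVA group at 28 d, D844 stood apart in Drd1 (92.5 CPM), Drd2 (99.9 CPM), Adora2a (112 CPM), Ppp1r1b (627 CPM), Rgs9 (122 CPM) and Pde10a (480.3 CPM). D845 stood apart in C1ql2, with 13.7 CPM against 59.4 to 64.3 CPM, and in Ttr, with 4844 CPM against 56.5 to 359.9 CPM, although mice of other groups reached 4885 CPM. These region genes were chosen after their values were seen.

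The response differed between 5 and 28 d by edgeR's quasi-likelihood test for Pnck (1.135 on the log2 scale), Ppm1e (−0.77) and Bdnf (−2.09). Without D844 the difference passed the limits for Bdnf alone among these 3. All mice at 5 d were of batch 1, so 28 d cannot be told apart from batch for its mice of batch 2.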

How the results depend on the processing

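No paired analysis was possible because no replicate name occurs in more than 1 group. Shares over all genes were counted only in edgeR's model of all mice and in that without D844. The counts under the other alternatives below have no such share beside them, so nothing is read from them. Of the 9 genes, those lower at 5 d numbered 6 with the FDR alone, and leaving out single mice gave 2 to 4. Those higher at 5 d numbered 0 without covariates, with the batch label or with the mice of the day alone, and 0 to 1 over left-out mice. Lower at 8 d was 1 with the FDR alone and 0 to 1 over left-out mice. Lower at 28 d was 2 with the mice of the day alone, 0 in each batch alone and 2 to 4 over left-out mice. Higher at 28 d was 0 without covariates, with the batch label, the day alone or either batch alone, and 0 to 1 over left-out mice.

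Of the 46 other genes, lower at 5 d numbered 5 without covariates or with the batch label, 1 with batch and surrogate variables, 13 with the FDR alone and 1 to 4 over left-out mice (1 without D725 or D723, 4 without D755). Higher at 5 d was 2 without covariates, with the batch label, the day alone or D844 out of all days, and 1 to 2 over left-out mice. Lower at 8 d was 2 with DESeq2 or with 15 counts in every mouse, 0 without covariates, with the batch label or the day alone, 7 with the FDR alone and 1 to 3 over left-out mice (3 without D701, 2 without D696). Lower at 28 d was 2 with the day alone, 0 in either batch, 22 with the FDR alone and 6 to 17 over left-out mice (6 without D845, 9 without D851). Higher at 28 d was 1 with DESeq2, its size factors or batch with surrogate variables, 3 with the FDR alone and 0 to 1 over left-out mice.

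Camk2d at 28 d reversed to −0.42 in batch 1 alone. Shares in control mice with the shortest, the longest and no transcript length were 91.5%, 72.7% and 76.7% for Camk2a and 0.894%, 3.69% and 2.90% for Camk2g. The Camk2b share was 7.33% with the shortest and 22.9% with the longest, and that of Camk2d 0.725% with the longest and 0.850% with no length. The Camk2d difference was 0.560 and 0.661 percentage points at 5 d and 1.42 and 1.67 at 28 d with the longest and with no length. Of 18 calls in single pathway genes, 16 were lost under at least 1 alternative. The causes were not tested. The day, batch and left-out fits had fewer mice, and the day and batch fits also held no surrogate variables.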
